A study of Drosophila melanogaster with 36 samples.

Results

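Translating ribosome affinity purification (TRAP) was compared between fly heads that carried a tagged ribosome and heads that did not, 7 days post ablation (dpa) of antennae and maxillary palps. The comparison holds 9 pulldown libraries of the 36 libraries in the series, 3 from each of 3 genotypes. Wild type (w; orco-Gal4/+; 5xUAS-GFP::RpL10Ab/+) expressed the GFP-tagged large subunit protein RpL10Ab under orco-Gal4, which is active in most olfactory sensory neurons. The dnmnatOE genotype carried w, the same tag insertion (5xUAS-GFP::RpL10Ab/+) and the driver over a dnmnat transgene (orco-Gal4/5xUAS-dnmnat). Background (w; orco-Gal4/+) carried the driver with no tagged ribosome. The driver and the w mutation were common to all 3 genotypes. All heads were injured, and the methods of the study give 300 animals per genotype and condition. Each tagged genotype, and their mean at equal weight, was set against background. The transcripts described here are the 103 of 17611 genes in the files that were called in the same direction in wild type and in dnmnatOE.

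In TRAP a GFP fusion of a ribosomal protein is expressed in chosen cells, and antibody-coated beads collect these ribosomes together with the mRNA they carry. A mock pulldown from animals without the fusion holds the RNA that sticks to beads or plastic, so a transcript carried by tagged ribosomes is looked for above that level. Severed axons have lost their cell bodies. Over-expressed dnmnat, an NAD-producing enzyme, keeps severed axons from degenerating, whereas wild-type axons are cleared.

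The labels name the cell type olfactory sensory neurons, whose somata in antennae and maxillary palps had been removed from these heads. Of 24 olfactory neuron markers (Orco, olfactory, ionotropic and gustatory receptors), 3 passed the filter on low counts and 14 had no count in any of the 9 libraries. Their summed level was 7.10 to 35.5 CPM (TMM-scaled rate of counts in the library) in wild type and 20.8 to 30.8 CPM in dnmnatOE, against 18.2 to 20.9 CPM in background. The defining marker Orco, the common olfactory co-receptor, reached 4.14 CPM at most. The pulldowns held 708879 to 1193734 counts on genes in wild type and 726888 to 1463490 in dnmnatOE, against 717185 to 974540 in background. The 20 most abundant genes took 40.5% to 49.3%, 28.7% to 32.7% and 38.5% to 41.8% of them in the same order of genotypes, and rRNA pseudogenes alone took 18.9% to 30.9%, 13.9% to 18.3% and 19.1% to 23.2%. By the labels, the 3 libraries of each group are technical replicates. Errors and p-values below therefore measure the spread between libraries, which may not include the spread between animals. In whole heads, fewer cells of a type and less RNA per cell cannot be told apart.

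Counts on the gene of the bait were not higher in tagged pulldowns. They measure RNA and not how much tagged protein the beads collected. RpL10Ab (chromosome 3L, 11822851 to 11824211, Release 6 assembly) encodes the tagged protein, and reads of the fusion and of the native gene fall on the same count. It had 635, 539 and 612 CPM in wild type and 527, 417 and 511 CPM in dnmnatOE, against 728, 669.6 and 751 CPM in background. All 6 tagged libraries lay below all 3 background libraries, with a mean difference of -176 CPM (two-sided exact permutation p = 0.0238, which no relabeling out of 84 can undercut, and 0.119 after adjustment over 5 single values). The fitted log2 fold change of the tagged mean over background was -0.41 ± 0.12 (SE), adjusted p = 0.0307, inside the fold threshold of 0.6. In inputs, whole-head RNA taken before the pulldown, it was 0.34 ± 0.04 (adjusted p = 1.60e-09). The change was not particular to RpL10Ab. Cytosolic ribosomal protein genes had a median of -0.33 over 83 tested in pulldowns and of 0.26 over 86 tested in inputs.

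The other transgene-related genes were near the limit of counting in these pulldowns. Nmnat, the fly gene of dnmnat, had 0, 8.11 and 4.14 CPM in wild type and 14.5, 3.54 and 7.94 CPM in dnmnatOE, against 14.1, 11.3 and 2.78 CPM in background. Orco had 0, 0 and 4.14 CPM in wild type and 3.78, 1.18 and 2.44 CPM in dnmnatOE, against 0, 0 and 1.39 CPM in background. The eye colour gene w, mutated in these lines and often restored by transgene markers, had 7.40, 0 and 13.5 CPM in wild type and 13.2, 41.3 and 14 CPM in dnmnatOE, against 1.01, 28.9 and 0 CPM in background. The groups overlapped in all 3 genes, and exact permutation tests of the 6 tagged against the 3 background libraries gave p = 0.452 for Nmnat, 0.381 for Orco and 0.810 for w. The share of reads set aside as overlapping more than 1 gene differed by genotype. It was 55.8% to 60.0% in wild type and 48.5% to 53.7% in dnmnatOE, against 51.2% to 54.0% in background. Every wild type library lay above every dnmnatOE and background library. The exact permutation test of the 6 tagged against the 3 background libraries (p = 0.595) pools both tagged genotypes and does not address this split.

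Of 7213 genes with enough counts, 73 transcripts were higher and 30 were lower in both tagged genotypes than in background. Calls required that edgeR's quasi-likelihood test gave an adjusted p no higher than 0.05 and that the log2 fold change lay beyond 0.6 in size. Wild type over background had 160 higher (2.22% of genes tested) and 60 lower (0.832%), dnmnatOE over background 180 higher (2.50%) and 158 lower (2.19%), and the tagged mean over background 179 higher (2.48%) and 119 lower (1.65%). The 73 shared higher transcripts are 1.01% of genes tested and the 30 shared lower ones 0.416%. Both comparisons use the same 3 background libraries, so a background library that departs from the others moves both, and the overlap is given as a count only. The rule used the values of these 9 libraries, so their levels and fold changes at 7 dpa are a description of the transcripts chosen. The tagged libraries lay on 1 side of all background libraries for all 73 higher and for 29 of 30 lower transcripts, a separation that 5.05% and 4.17% of genes tested showed.

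The tagged mean over background ranged from 0.70 to 6.93 on the log2 scale among the higher transcripts, with a median of 1.39, and from -1.89 to -0.70 among the lower ones, with a median of -1.0. The median over all genes tested was -0.02. Of the 73 higher transcripts 72 were protein coding, as were 97.0% of genes tested. Just inside the threshold were CG7453 (adjusted p of 0.0484 in dnmnatOE) and stops (0.0499), and just outside it were Esyt2 (0.0503) and CG6686 (0.0530). With 1 of the 9 libraries left out at a time, 34 of the 73 and 14 of the 30 transcripts remained called in both genotypes in all 9 fits, and between 51 and 66 higher and between 19 and 30 lower transcripts were called. The 19 came without wild type replicate 1. The count also moved with the fit. It was 120 higher and 35 lower with only these 9 libraries in the fit, and 338 higher and 193 lower with DESeq2 on all 36 libraries, which held 71 of the 73 and all 30.

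The transcript with by far the highest ratio was 7SLRNA:CR32864, the RNA of the signal recognition particle. This particle binds ribosomes that translate secreted and membrane proteins and docks them at the endoplasmic reticulum. The gene lies on chromosome 3R (6822500 to 6822798, Release 6 assembly). It had 527, 662 and 716 CPM in wild type and 295, 301 and 359 CPM in dnmnatOE, against 6.05, 2.52 and 1.39 CPM in background, of which the background values are 6, 2 and 1 counts. Every tagged library was far above every background library, and wild type was above dnmnatOE. Summed over libraries there were 3012 counts in tagged pulldowns and 9 in background, a ratio of 125 after scaling, with a 95% exact counting interval of 65.8 to 274 that covers counting error only. The fitted log2 fold change was 7.43 ± 0.30 in wild type and 6.44 ± 0.31 in dnmnatOE.

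In uninjured pulldowns, which the choice of transcripts did not use, the same RNA had 595, 497 and 566 CPM in wild type and 128, 161 and 141 CPM in dnmnatOE, against 4.08, 4.16 and 5.86 CPM in background. The log2 fold change there was 5.91 ± 0.28 (adjusted p = 5.13e-23), with a ratio of counts of 55.1 (32.1 to 103.7). It was not tested in inputs, which were made from poly-A purified RNA. A near-identical copy, 7SLRNA:CR42652, held 244 counts in tagged and 19 in background libraries at 7 dpa, a ratio of 4.80 (3.01 to 8.11), and its call did not pass by edgeR. In uninjured pulldowns this copy went the other way, with 120 counts in tagged and 72 in background libraries, a ratio of 0.65 (0.48 to 0.89). Its uninjured background libraries ranged from 1 to 68 counts. Of 4 signal recognition particle and RNase RNAs edgeR called 1 higher in the tagged mean at 7 dpa, and DESeq2 on the same libraries called 2. Reads of the 7SL copies may be split between them. With the counts of both copies summed, an alternative chosen after the data were seen, the log2 fold change of the tagged mean was 5.45 at 7 dpa. The summed counts were not fitted for uninjured pulldowns.

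The higher set included 4 of 13 tested genes of the fat body list (Lsp2, Cyp4g1, Apoltp and Yp2), against 1.01% of all genes tested. Of the 73 genes in the set, 14 were in any of the lists. The genes outside the lists were picked for description after their values were seen. Lsp2, a larval storage protein of the fat body, had 59.2, 94.3 and 119 CPM in wild type and 174, 190.0 and 241 CPM in dnmnatOE, against 10.1, 22.7 and 23.6 CPM in background. Its level in dnmnatOE was above that in wild type in every library. Idgf6, a secreted chitinase-like growth factor, had 2034, 1864 and 1781 CPM in wild type and 1248, 1259 and 1193 CPM in dnmnatOE, against 583, 579 and 423 CPM in background. Yp2, a yolk protein that the fat body secretes, was the most abundant of the set, with 11298, 11423 and 11925 CPM in wild type and 11748, 10770 and 11451 CPM in dnmnatOE, against 6839, 6914 and 6294 CPM in background. Its groups were tight, and the difference of 0.78 ± 0.07 on the log2 scale (SE, adjusted p = 6.71e-13) was among the smaller ones.

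Tsf1, the iron carrier transferrin, averaged 2632 ± 144 CPM in wild type and 3802 ± 135 CPM in dnmnatOE, against 1603 ± 90.5 CPM in background (SD, n = 3 each). Apoltp, a lipid transfer lipoprotein, averaged 1112 ± 77.5 CPM in wild type and 1495 ± 235 CPM in dnmnatOE, against 648 ± 76.0 CPM in background. fat-spondin, a secreted matrix protein, averaged 722 ± 66.9 CPM in wild type and 589 ± 20.3 CPM in dnmnatOE, against 193 ± 64.0 CPM in background. All dnmnatOE libraries lay above all wild type libraries for Tsf1 and Apoltp, and below them for fat-spondin, but none of these 3 differences passed the test between the tagged genotypes. The clotting protein fon averaged 1284 ± 142 CPM in wild type and 1117 ± 48.2 CPM in dnmnatOE, against 504 ± 42.6 CPM in background. The basement membrane proteins Col4a1 (collagen IV) and Glt (glutactin) had log2 fold changes of 0.85 and 0.96 in the tagged mean. The serpins nec, which restrains Toll signalling, Spn43Ab and Spn88Eb had 1.57, 0.94 and 1.47, of which Spn88Eb remained called in 2 of 9 fits with a library left out. The serine protease Sp7 (2.36), the immune-regulated catalase Irc (1.57) and Idgf4 (0.96) belong to the same class of secreted proteins. The call of Sp7 was lost without background replicate 1 (adjusted p = 0.0510 for the tagged mean).

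**Figure D1:**
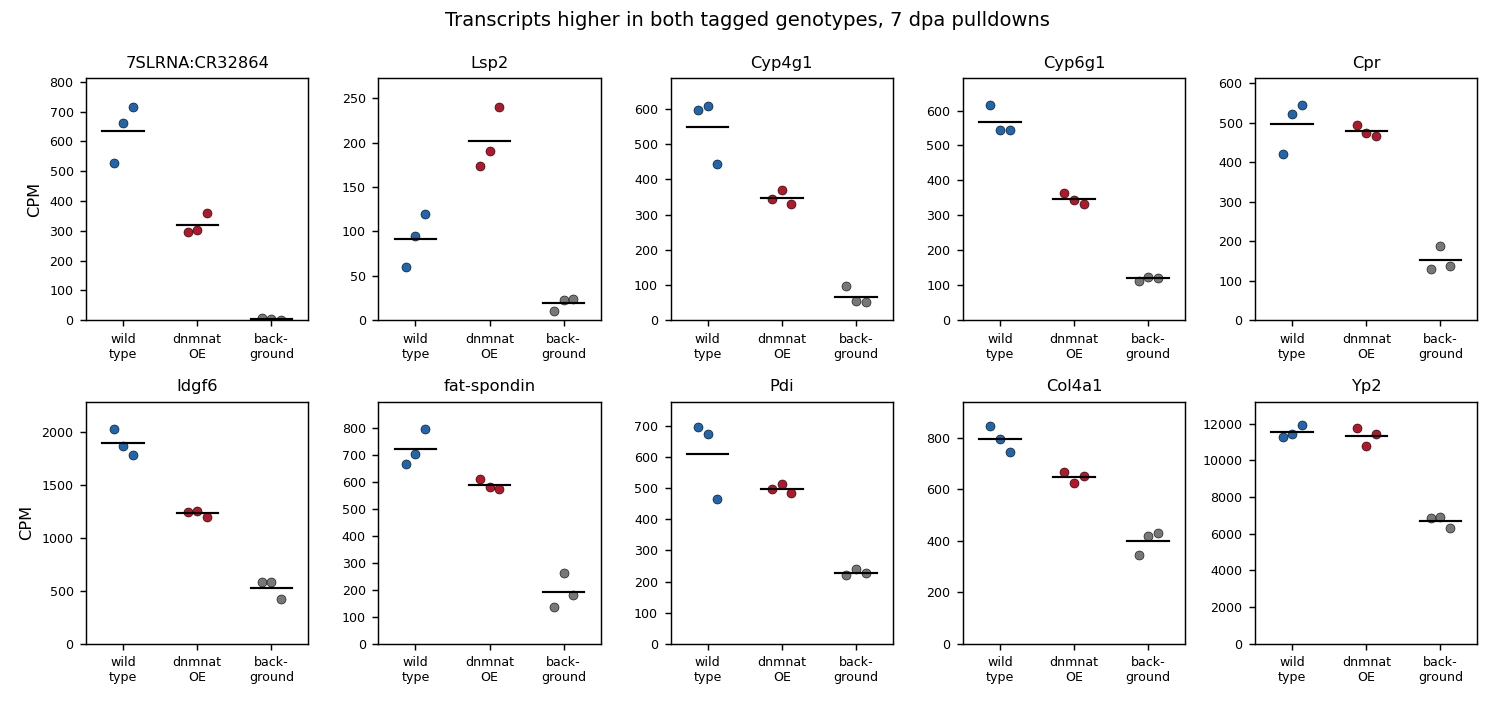
CPM (vertical axis, linear from 0) of 10 transcripts that were higher in both tagged genotypes, in the 9 pulldown libraries of 7 dpa. Points are libraries, black lines are means of 3 libraries, and the genotypes run from wild type through dnmnatOE to background, in which every library lies below every tagged library.

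Cytochrome P450 genes, whose enzymes oxidise hormones, lipids and toxins, were the list with the most shared higher members, 8 of 61 tested (1.01% of all genes tested). Cyp4g1, which makes cuticular hydrocarbons in oenocytes and is strongly expressed in fat body samples, had 598, 608 and 443 CPM in wild type and 345, 370.5 and 329.7 CPM in dnmnatOE, against 95.8, 52.9 and 51.5 CPM in background. Cyp6g1, known from insecticide resistance, had 616, 543 and 543 CPM in wild type and 364, 343 and 332 CPM in dnmnatOE, against 113, 123 and 121 CPM in background. Cyp6a2 had 213, 124 and 208 CPM in wild type and 254, 231 and 285 CPM in dnmnatOE, against 27.2, 54.1 and 57.0 CPM in background. All 3 were several times above background in both genotypes, and of the differences between wild type and dnmnatOE that of Cyp6g1 passed the test. The other 5 had log2 fold changes of 1.79 (Cyp9b2), 1.80 (Cyp6a13), 1.76 (Cyp4e2), 1.27 (Cyp6d5) and 1.25 (Cyp6w1) in the tagged mean. Cyp6a13 and Cyp6w1 each remained called in 1 of 9 fits with a library left out. Cpr, the reductase that passes electrons to these enzymes, had 422, 521 and 546 CPM in wild type and 494, 474 and 465 CPM in dnmnatOE, against 128, 189 and 138 CPM in background. The reads of close P450 paralogs may be shared, and Cyp6g1 overlaps Cyp6g2 in the annotation.

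Some higher transcripts in no list encode proteins of the endoplasmic reticulum, picked here after their values were seen and not counted against any list. Pdi, a protein disulfide isomerase, had 696, 674 and 465 CPM in wild type and 497, 512 and 484 CPM in dnmnatOE, against 219.9, 239 and 228 CPM in background. Calr, the calcium-binding chaperone calreticulin, had 1052, 897 and 677 CPM in wild type and 571, 542 and 595 CPM in dnmnatOE, against 302, 390.2 and 303 CPM in background. Gp93, the Hsp90 chaperone of this compartment, had 416, 413 and 412 CPM in wild type and 322, 312 and 414 CPM in dnmnatOE, against 193, 245 and 186 CPM in background. In each the lowest tagged library was above the highest background library. The sulfhydryl oxidase Qsox1 had a log2 fold change of 1.49 and the lysosomal saposin precursor Sap-r one of 0.75 in the tagged mean. Other examples are Acsl (1.28, an acyl-CoA synthetase), Fatp1 (0.93, a fatty acid transporter) and Jabba (1.11, a lipid droplet protein). CG5162 had 272, 279 and 187 CPM in wild type and 100.1, 60.2 and 78.8 CPM in dnmnatOE, against 34.3, 2.52 and 8.34 CPM in background, with 1 background library far above the other 2.

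Btk, a Tec family tyrosine kinase, had 44.4, 57.8 and 39.4 CPM in wild type and 73.6, 61.4 and 34.2 CPM in dnmnatOE, against 9.08, 10.1 and 4.17 CPM in background. PAN2, a subunit of a poly(A) deadenylase, had 96.2, 64.9 and 127 CPM in wild type and 116, 83.8 and 118 CPM in dnmnatOE, against 21.2, 44.1 and 48.7 CPM in background. shg, which encodes E-cadherin, had 138, 83.1 and 183 CPM in wild type and 78.7, 82.6 and 145 CPM in dnmnatOE, against 40.4, 52.9 and 48.7 CPM in background. Btk remained called in all 9 fits with a library left out, PAN2 in 5 and shg in 2. Amy-p, an alpha-amylase with the near-identical neighbour Amy-d, had 97.7, 64.9 and 79.8 CPM in wild type and 79.3, 143 and 116 CPM in dnmnatOE, against 20.2, 16.4 and 8.34 CPM in background, and its call held in 3 of 9 fits. Hsdl2 (2.15) remained in 1, and was lost for the tagged mean without background replicate 1 (adjusted p = 0.0596) and without background replicate 3 (0.0860). Est-6, an esterase of the antennal support cell list, had 1.52, lost without background replicate 1 (0.0971) and without background replicate 2 (0.0606). phu, Nepl18, a neprilysin-like protease, and Adgf-D, an adenosine deaminase-related growth factor, had log2 fold changes of 2.47, 2.42 and 1.96. Of the 73 genes, 20 share exon sequence with another annotated gene, among them Adgf-D with ninaB, and the strand setting of the count is not given in the sources used here.

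Among the 30 lower transcripts were genes of photoreceptors and muscle. ninaE, the rhodopsin of the outer photoreceptors, had 7714, 7327 and 7561 CPM in wild type and 4103, 4041 and 4474 CPM in dnmnatOE, against 11708, 12410 and 12872 CPM in background. Rh6, a rhodopsin of an inner photoreceptor, had 75.5, 84.1 and 50.8 CPM in wild type and 65.4, 56.6 and 51.9 CPM in dnmnatOE, against 252, 165 and 167 CPM in background. chp, the photoreceptor surface protein chaoptin, had 243, 279 and 249.7 CPM in wild type and 249.8, 293 and 262 CPM in dnmnatOE, against 460.1, 457 and 431 CPM in background. ninaE was lower in dnmnatOE than in wild type in every library, whereas the libraries of both tagged genotypes overlapped for chp. PIP82, a photoreceptor protein outside the fixed list, had a log2 fold change of -0.82, and stops, which keeps phospholipase C stable in these cells, one of -1.14. stops is the lower transcript whose tagged and background libraries overlap, and it remained called in 1 of 9 fits with a library left out.

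Of muscle genes, up, which encodes troponin T, had 246, 342 and 299 CPM in wild type and 160.5, 192 and 214 CPM in dnmnatOE, against 493, 542 and 407 CPM in background. Zasp52, a Z-disc protein outside the fixed list, had 466, 488 and 378 CPM in wild type and 244, 210.0 and 250.3 CPM in dnmnatOE, against 659.8, 705 and 762 CPM in background. Both were lower in dnmnatOE than in wild type in every library. Prm (paramyosin) had a log2 fold change of -0.80 and remained called in 1 of 9 fits. The calls of up in both genotypes were lost without wild type replicate 1, wild type replicate 3 or background replicate 2.

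Of the 30 lower transcripts 25 were protein coding and 5 were non-coding RNAs, where 97.0% of genes tested were protein coding. lncRNA:roX1, a male-specific RNA of the dosage compensation complex, had 416, 368 and 255 CPM in wild type and 293, 361 and 259 CPM in dnmnatOE, against 524, 542 and 592 CPM in background. lncRNA:roX2, the other RNA of that complex, had 71.0, 81.1 and 93.3 CPM in wild type and 51.0, 49.6 and 28.1 CPM in dnmnatOE, against 193, 117 and 189 CPM in background. The call of roX1 in both genotypes was lost without wild type replicate 3. snRNA:U12, of the minor spliceosome, had 114, 134 and 159 CPM in wild type and 53.5, 49.6 and 62.3 CPM in dnmnatOE, against 316, 272 and 277 CPM in background. Its level in dnmnatOE was below that in wild type in every library. The other 2 were lncRNA:CR40469 (-1.14) and lncRNA:CR34335 (-0.98). The sex of the heads is not given in the labels. Yp2, made by females, was higher and roX1 and roX2 were lower in tagged pulldowns, while the other yolk protein genes, Yp1 and Yp3, had log2 fold changes of 0.02 and 0.48 and were not called. Yp3 had an adjusted p of 5.64e-08 by edgeR and stayed within the fold threshold. In inputs all of them were called higher, with log2 fold changes of 0.87 (Yp1), 1.57 (Yp2) and 1.34 (Yp3). The part of a difference in sex ratio in these results was not tested.

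The mitochondrial enzymes Mdh2 (malate dehydrogenase) and kdn (citrate synthase) were also among the lower transcripts. Mdh2 had 226, 199 and 196 CPM in wild type and 184, 223 and 208 CPM in dnmnatOE, against 345, 385 and 366 CPM in background. kdn averaged 341 ± 72.2 CPM in wild type and 243 ± 25.5 CPM in dnmnatOE, against 541 ± 60.2 CPM in background (SD, n = 3 each). tou, which encodes a chromatin protein, had 154, 244 and 235 CPM in wild type and 266, 243 and 271 CPM in dnmnatOE, against 526, 590.3 and 594 CPM in background. LUBEL, a ligase for linear ubiquitin chains, averaged 108 ± 18.8 CPM in wild type and 103.6 ± 11.9 CPM in dnmnatOE, against 218 ± 46.1 CPM in background. The translation elongation factor eEF1beta (-0.86), the kinase Slik (-0.75), the channel Ih (-0.82), the RNA helicase Rm62 (-0.70) and the phosphatase Ipp (-0.97) were also lower. CG45076 (-1.52) and CG9297 (-1.07) were lower as well, with no role given here. Vdup1 had the lowest ratio of the set (-1.89) but only 10.4 to 17.7 CPM in tagged libraries, against 40.3 to 62.9 CPM in background, and no fit with a library left out called it in both genotypes.

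**Figure D2:**
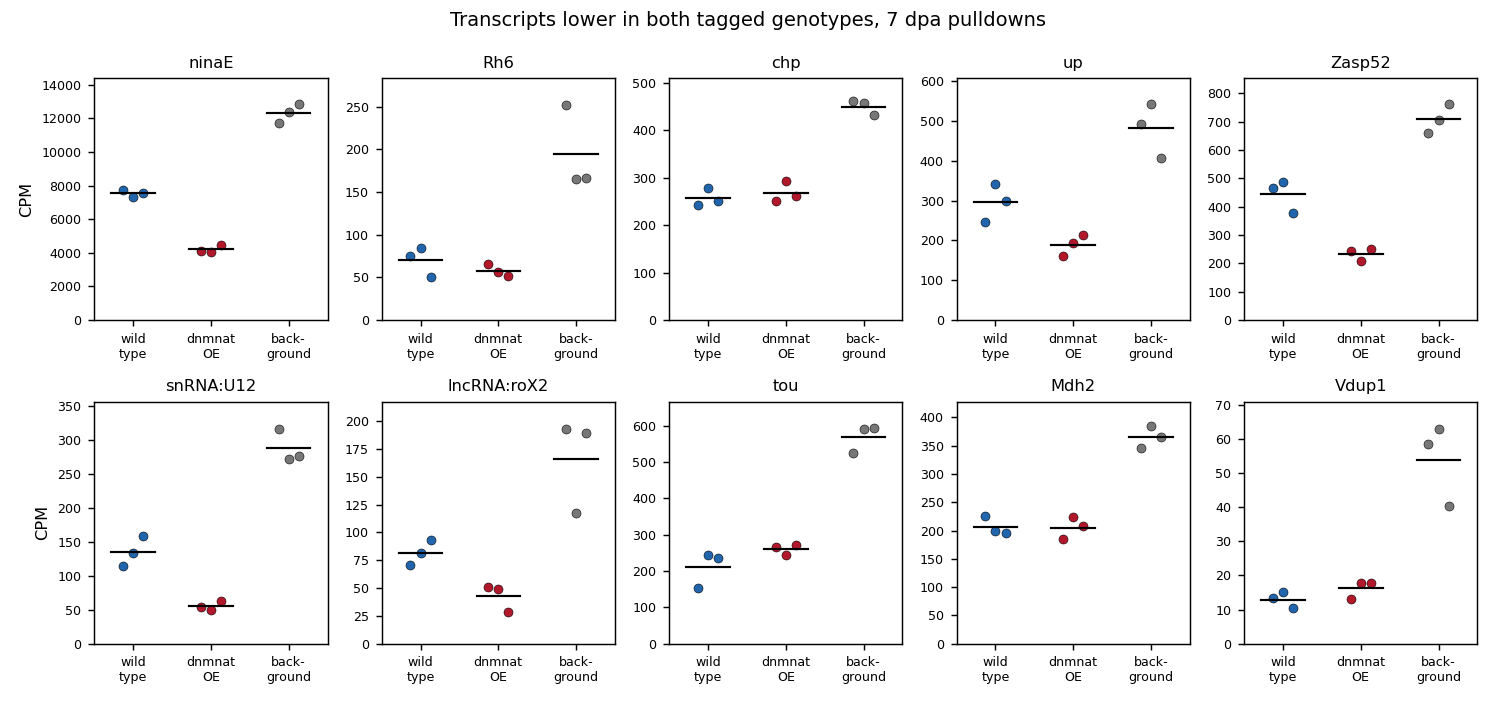
CPM (vertical axis, linear from 0) of 10 transcripts that were lower in both tagged genotypes, in the 9 pulldown libraries of 7 dpa. Points are libraries, black lines are means of 3 libraries, and the genotypes run from wild type through dnmnatOE to background, in which every library lies above every tagged library.

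The size of the change differed by test between the tagged genotypes for 14 of the 103 transcripts. By fitted values alone, the change was larger in wild type for 54 and in dnmnatOE for 19 of the 73 higher transcripts, and larger in dnmnatOE for 22 and in wild type for 8 of the 30 lower ones. These tallies turned with scaling by library size alone, to 23 and 50 for the higher and to 9 and 21 for the lower transcripts, in the same order. That scaling moved the median dnmnatOE over wild type difference of all genes to 0.34, against 0 with TMM. The direct contrast of dnmnatOE over wild type called 1 of the 73 higher and 7 lower (1.23% and 1.37% of genes tested). Lsp2 was the 1 higher (1.14 ± 0.30), and 7SLRNA:CR32864 (-1.0), CG5162 (-1.62), phu (-1.27), Cyp6g1 (-0.71), Idgf6 (-0.62), CG2233 (-0.85) and Calr (-0.62) were lower in dnmnatOE. With library size alone it called 6 higher and 2 lower of the 73, and 2 higher and 2 lower of the 30. With TMM 6 of the 30 lower transcripts were lower again in dnmnatOE, namely snRNA:U12 (-1.29), CG43897 (-1.07), lncRNA:roX2 (-0.95), Zasp52 (-0.92), ninaE (-0.84) and up (-0.65). This contrast uses libraries that chose the transcripts, but not background. The share of counts in the 20 most abundant genes was lower in all dnmnatOE libraries (28.7% to 32.7%) than in all wild type libraries (40.5% to 49.3%), and its part in these differences was not tested.

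**Figure D3:**
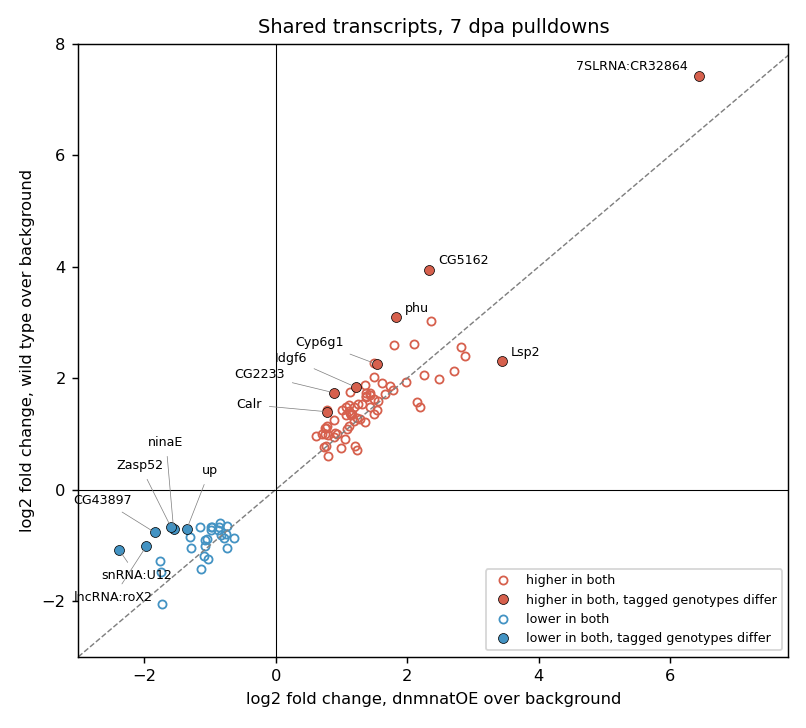
Log2 fold change over background in dnmnatOE (horizontal axis) and in wild type (vertical axis) of the 103 transcripts called in both, with the line of equal change dashed. Filled points were also called between dnmnatOE and wild type. Most higher transcripts lie above the line and most lower ones also lie above it, with 54 of 73 and 22 of 30. With library size alone in place of TMM these become 23 of 73 and 9 of 30. Both axes use the same background libraries.

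A further 352 transcripts were called in 1 tagged genotype only. For 114 of them dnmnatOE and wild type also differed from each other by test (1.23% higher and 1.37% lower among all genes tested). The choice by a call in 1 genotype uses the same tagged libraries, which favours such a difference. The rest of the 352 did not differ by the test of dnmnatOE over wild type, so a call in 1 genotype alone does not set them apart. snRNA:U2:34ABa, a major spliceosome RNA, had 259, 323 and 302 CPM in wild type, no count in the 3 dnmnatOE libraries, and 258, 365 and 254 CPM in background. Against a floor of 3 counts per library it was at least 121-fold lower in dnmnatOE than in background. In uninjured pulldowns dnmnatOE held 1 count in all, against 1188 in background. snRNA:7SKa had 5240.5, 5784 and 5969.5 CPM in wild type and 1256, 1434 and 1529.5 CPM in dnmnatOE, against 8336, 8323 and 8724 CPM in background. The non-coding RNA lncRNA:noe had 20540, 19322 and 19801 CPM in wild type and 2410.3, 2647 and 2306 CPM in dnmnatOE, against 14729, 14465 and 15026 CPM in background. It was called lower in dnmnatOE, and the wild type libraries lay above background without passing the test. Sin3A, a co-repressor of transcription, was high in dnmnatOE alone and had 269, 202 and 290.1 CPM in wild type and 1369, 1306 and 1409.8 CPM in dnmnatOE, against 460.1, 244 and 339 CPM in background.

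Several of these transcripts were higher in dnmnatOE only. The log2 fold changes of dnmnatOE over wild type were 2.11 for lncRNA:CR43459, 1.87 for jeb, a ligand of the Alk receptor, 1.86 for the channel NaCP60E and 1.81 for ry, xanthine dehydrogenase. The call of the tagged mean of jeb was lost in 7 of 9 fits with a library left out. CG10383 went the other way and was high in wild type alone, with 189, 257 and 274 CPM in wild type and 47.8, 61.4 and 86.1 CPM in dnmnatOE, against 40.4, 86.8 and 57.0 CPM in background. CG5177 was lower in dnmnatOE (-1.68).

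The inputs address whether the same differences were present in whole-head RNA before any pulldown. They were for most higher transcripts. Of the 73, 72 could be tested in 7 dpa inputs, where the tagged mean over background called 67 higher (93.1%), against 15.4% higher and 9.25% lower among all 10437 genes tested. Over these 72 the input differences centred on a median of 1.96 (log2), and 57 of the 72 changed more in inputs than in pulldowns. Idgf6 had 8544, 8221 and 8159 CPM in wild type and 10455, 10284 and 10621 CPM in dnmnatOE, against 2368, 2312 and 2207 CPM in background in inputs. Cyp4g1 had 3646, 3703 and 3650.5 CPM in wild type and 5323, 5213 and 5126 CPM in dnmnatOE, against 392, 393 and 389 CPM in background. Yp2 had 46015, 44603 and 47703 CPM in wild type and 75885, 84134 and 83082 CPM in dnmnatOE, against 21458, 21460 and 18899 CPM in background. The groups did not overlap in any of these. The inputs are separate libraries, but from the same heads, and background inputs were shallower (6628633 to 7414020 counts on genes) than the tagged ones (16623027 to 22329307).

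The 5 higher transcripts tested but not called in inputs were Btk (0.01), PAN2 (0.24), shg (0.24), CG42342 (-0.13) and Plp (0.40). Btk had 30.2, 25.6 and 31.6 CPM in wild type and 24.2, 24.1 and 37.8 CPM in dnmnatOE, against 26, 27.2 and 32.9 CPM in background in inputs, where the groups overlapped. Of the lower transcripts 29 were tested in inputs, with 16 lower and 1 higher. The lower ones include ninaE (-1.10 ± 0.03), Rh6 (-1.01 ± 0.06), chp (-1.05 ± 0.07), up (-1.10 ± 0.06), Zasp52 (-0.84 ± 0.08) and lncRNA:roX1 (-0.60 ± 0.07). The higher one was lncRNA:CR34335, with 156, 153 and 176 CPM in wild type and 77.2, 69.2 and 79.3 CPM in dnmnatOE, against 57.4, 61.2 and 40.3 CPM in background in inputs, while in pulldowns all tagged libraries were below background. The genes not called in inputs include Mdh2 (-0.07), Svil (0.03, supervillin) and Slik (-0.06).

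The difference between the pulldown change and the input change was tested in 1 fit of the 18 libraries of 7 dpa. It uses the pulldown values that chose the transcripts, so a larger change in pulldowns is favoured by that choice. The change was larger in pulldowns for 7 of the 73 higher transcripts (4.25% of 9081 genes tested were called in that direction), larger in inputs for 20 (3.16%), and not called for 46. The 7 were Btk (2.91 ± 0.49), CG42342 (1.49 ± 0.42), PAN2 (1.43 ± 0.32), osy (1.36 ± 0.43), shg (1.30 ± 0.34), CG5162 (1.27 ± 0.39) and Nepl18 (0.86 ± 0.27). Among the 20 were CG9512 (-1.78), Col4a1 (-1.63), Gp93 (-1.19) and Cyp6a2 (-1.14). For 5 of the 30 lower transcripts the log2 fold change was called lower in pulldowns than in inputs. These were lncRNA:CR34335 (-1.82), Vdup1 (-1.47), lncRNA:CR40469 (-1.43), Svil (-0.70) and eEF1beta (-0.63). Calls of this contrast depend on the method, and limma voom with a weight for each assay gave 134 higher and 66 lower genes where edgeR gave 386 and 287.

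Uninjured pulldowns of the same genotypes, with olfactory neuron somata in place, gave a comparison of tagged with untagged heads in other libraries. Of the 73 higher transcripts 14 were called higher (19.2%, against 1.58% of genes tested), 3 lower and 56 neither. Their median there was 0.31 on the log2 scale. The 14 include 7SLRNA:CR32864 (5.91), Spn88Eb (2.06), osy (1.68), Cyp6a2 (1.56), phu (1.21), Jabba (1.19) and Idgf6 (1.11). The 3 lower ones were Amy-p (-3.71), CG9512 (-1.30) and Col4a1 (-0.71). Col4a1 had 366, 405 and 364 CPM in wild type and 231, 243 and 291 CPM in dnmnatOE, against 464, 493 and 566 CPM in background in uninjured pulldowns, the reverse of its order at 7 dpa. Of the 30 lower transcripts 9 were lower in uninjured pulldowns (against 2.26% of genes tested), among them tou (-2.23), eEF1beta (-1.13), snRNA:U12 (-1.01), Rh6 (-0.86) and ninaE (-0.67).

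A test of the change with injury, added after the data were seen, called 36 of the 73 higher transcripts as rising further over background at 7 dpa than in uninjured heads (1.80% of genes tested), and 11 of the 30 lower ones as falling further (1.25%). The transcripts were chosen at 7 dpa, which favours this direction. The background pulldowns themselves differed between conditions. At 7 dpa over uninjured, 21 of the 73 transcripts were higher and 4 lower in background (1.64% and 0.943% of genes tested).

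**Figure D4:**
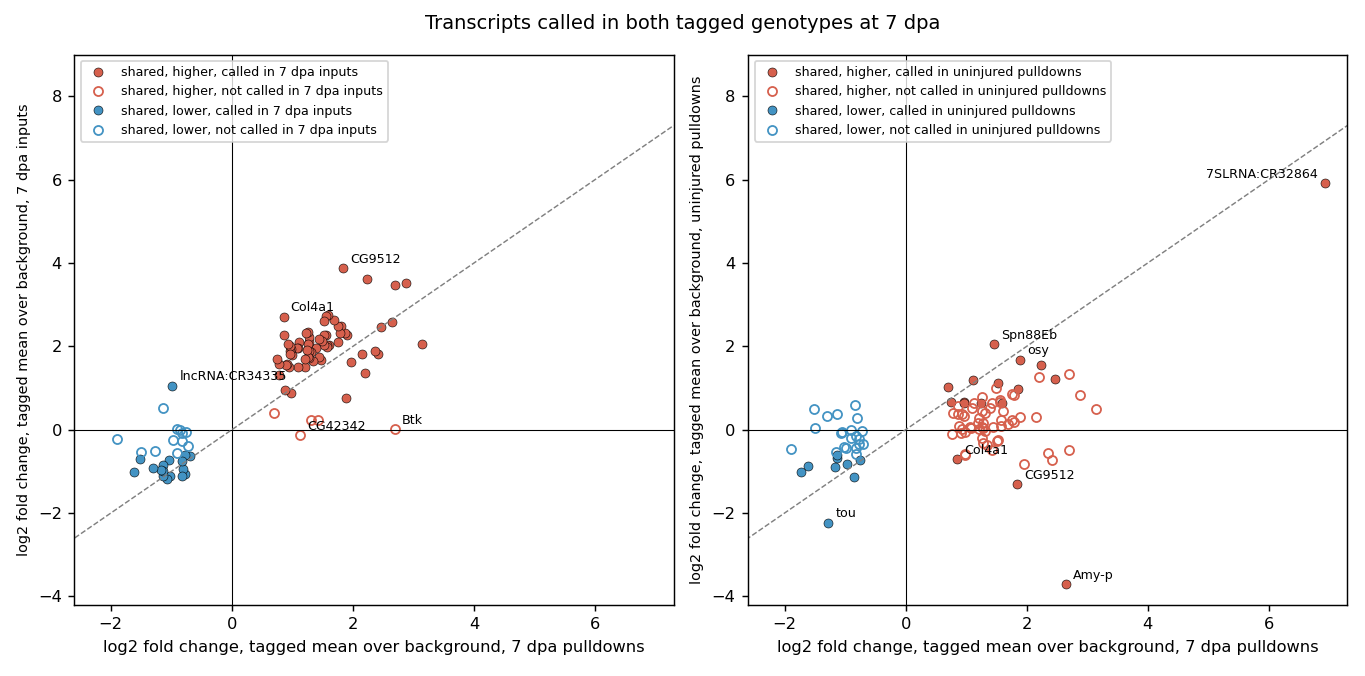
Log2 fold change of the tagged mean over background in 7 dpa pulldowns (horizontal axis) against the same contrast in 7 dpa inputs (left, vertical axis) and in uninjured pulldowns (right, vertical axis) for the transcripts called in both tagged genotypes. Filled points were called in the libraries of the vertical axis, and the dashed line marks equal change. In inputs 67 of 72 higher transcripts are filled, and in uninjured pulldowns 14 of 73 are filled above 0 and 3 below.

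Gene lists chosen with earlier results of these data known give the wider setting of the shared transcripts, each read in pulldowns against 2.48% higher and 1.65% lower calls of the tagged mean and a median of -0.02 over all genes tested. In inputs 15.4% of all genes were higher and 9.25% lower, and in uninjured pulldowns 1.58% were higher and 2.26% lower. In the fat body list 5 of 13 tested genes were called higher (median 0.78), namely Lsp2, Cyp4g1, Yp2, Apoltp and apolpp, and the others did not pass. apolpp, the lipoprotein precursor, had 2861, 2739.8 and 2792 CPM in wild type and 3799, 4242 and 3582 CPM in dnmnatOE, against 1830.1, 1679 and 2171 CPM in background. The summed level of the list was 43665 to 45485 CPM in wild type and 43809 to 45985 CPM in dnmnatOE, against 32918 to 34448 CPM in background. In the P450 list 10 of 61 were higher and 1 lower (median 0.75). The lower one, Cyp6a17, had 20.7, 13.2 and 22.8 CPM in wild type, no count in dnmnatOE, and 35.3, 12.6 and 6.95 CPM in background. Its wild type and background libraries overlapped. In the hemocyte list 1 of 12 was higher (Col4a1, median 0.14), with a summed level of 1886 to 1916 CPM in wild type and 1475 to 1629 CPM in dnmnatOE, against 1215 to 1303 CPM in background. In inputs 12 of 17 fat body genes, 49 of 81 P450 genes and 10 of 13 hemocyte genes were higher, against the 15.4% of all genes. In uninjured pulldowns 0 of 13 fat body genes were called in either direction, and 4 of 61 P450 genes were higher. Of 12 hemocyte genes 1 was higher and 2 were lower there.

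In the photoreceptor list 5 of 21 were lower (median -0.46) and in the muscle list 7 of 16 (median -0.63), with 9 of 21 and 13 of 19 lower in inputs, against 9.25% of all genes. In uninjured pulldowns 1 of 21 photoreceptor genes was higher and 3 were lower, and 2 of 16 muscle genes were higher and 0 lower (median 0.07). Arr2, the arrestin of photoreceptors, had 2470, 2679 and 2534 CPM in wild type and 1963, 1815 and 1896 CPM in dnmnatOE, against 3405, 3617 and 3529.5 CPM in background, and the muscle genes Zasp66 (-0.90) and Mf (-0.94) were called lower in dnmnatOE and not in wild type. The summed photoreceptor level was 17897 to 18092 CPM in wild type and 13223 to 13664 CPM in dnmnatOE, against 25470.0 to 26390.0 CPM in background. The summed muscle level was 4333 to 4691 CPM in wild type and 5264 to 5454 CPM in dnmnatOE, against 5866 to 6157 CPM in background. Of the 16 muscle genes 2 were higher and 8 lower in dnmnatOE over background, against 2.50% and 2.19% of all genes. In dnmnatOE over wild type 2 were higher and 5 lower (1.23% and 1.37% of all genes). Of 83 cytosolic ribosomal protein genes 5 were lower (median -0.33), among them RpL6 (-0.69), RpLP2 (-0.75) and RpL11 (-0.63). With library size alone 2 were lower. Wild type over background called 1 of the 83 lower and dnmnatOE over background 11, against 0.832% and 2.19% of all genes. In inputs 0 of 86 were called in either direction (median 0.26). In uninjured pulldowns 54 of the 83 were lower, against 2.26% of all genes. The call of RpL11 was lost in 6 of 9 fits with a library left out. Of 49 translation factors 5 were lower, with pAbp (-0.68), eIF4A (-0.70) and eEF1alpha2 (-0.77) at the smallest adjusted p. The part of fat body, photoreceptor and muscle RNA in the shared calls was not tested. Without the listed genes of these tissues, hemocytes, P450s and sex-biased transcripts, an alternative chosen after the data were seen, 58 higher and 23 lower transcripts were shared. Dropping listed genes lowers the count by itself, and tissue genes outside the lists, such as PIP82 and Zasp52, were kept. The count therefore does not bear on the part of these tissues.

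The pan-neuronal, calcium handling and ubiquitin ligase lists had more calls over background in dnmnatOE than in wild type. Among all genes tested, 2.50% were higher and 2.19% lower in dnmnatOE over background, and 2.22% and 0.832% in wild type over background. Of 25 pan-neuronal and synaptic genes 4 were higher and 2 lower in dnmnatOE over background. In wild type over background edgeR called 0 higher and 2 lower (0 higher and 6 lower at an unadjusted p under 0.05). DESeq2 called 0 higher and 3 lower there. The direct contrast of dnmnatOE over wild type called 6 of the 25 higher, against 1.23% of all genes. In inputs 16 of the 25 were lower, and pulldown minus input called 14 of 25 higher, against 4.25% of all genes. Of 18 calcium handling genes 5 were higher and 1 lower in dnmnatOE (median 0.37), none was called in wild type by edgeR (0 higher and 4 lower at an unadjusted p under 0.05, and 1 lower by DESeq2), and 7 were higher in dnmnatOE over wild type. In inputs 2 of the 18 were higher and 8 lower, and pulldown minus input called 8 higher and 1 lower. Of 21 ubiquitin ligases 4 were higher in dnmnatOE and 1 was lower in wild type. In the tagged mean para, the voltage-gated sodium channel, was higher (0.95) and VGlut, the vesicular glutamate transporter, lower (-0.72, lost without background replicate 1 with an adjusted p of 0.0891). para had 188, 157 and 108 CPM in wild type and 345, 346 and 271 CPM in dnmnatOE, against 101, 131 and 108 CPM in background, and it was called in dnmnatOE and not in wild type. Single genes were higher in the tagged mean in the lists of TOR and insulin signalling (gig, 1.26), axonal transport (shot, 0.62) and antennal support cells (Est-6). So were 2 of 21 ubiquitin ligases (HERC2, 0.76, and Bruce, 0.61). Wild type over background called 0 TOR, axonal transport and ubiquitin ligase genes higher, and dnmnatOE over background 2 of 20, 1 of 24 and 4 of 21. The contrast of dnmnatOE over wild type called 0, 3 and 4 of them higher, against 1.23% of all genes. HERC2 had 416, 589.9 and 602 CPM in wild type and 1523, 1410 and 1407 CPM in dnmnatOE, against 603, 522 and 435 CPM in background. In the tagged mean edgeR called no gene among 16 glial markers (2 at an unadjusted p under 0.05), 18 calcium handling genes (5), 11 axon death and NAD genes (1), 13 heat shock genes (2), 12 antimicrobial peptides (0), 27 mitochondrial ribosomal proteins (1), 9 rRNA pseudogenes (1) and 3 olfactory neuron markers (0). DESeq2 on the same libraries called 1 glial and 1 calcium handling gene and none in the other lists, and edgeR with RLE scaling called 1 glial gene. In single genotypes edgeR called 1 axon death and NAD gene lower in wild type, and 1 heat shock gene higher and 1 rRNA pseudogene lower in dnmnatOE.

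Of 104 small nucleolar RNAs tested 2 were higher and 2 lower in the tagged mean, against 2.48% and 1.65% of all genes. In wild type over background 27 were higher (2.22% of all genes) and in dnmnatOE over background 8 were lower (2.19%). These counts were 16 and 3 with library size alone, and 40 and 9 of 152 with DESeq2. The median in dnmnatOE was -0.20, and 0.02 with library size alone. With TMM the direct contrast of dnmnatOE over wild type called 47 of the 104 lower and 0 higher (1.37% and 1.23% of all genes). In uninjured pulldowns the tagged mean called 26 of the 104 lower and 0 higher (median -0.59), against 2.26% and 1.58% of all genes. snoRNA:Or-aca5 had 809.5, 1298 and 1034 CPM in wild type and 471, 388 and 548 CPM in dnmnatOE, against 439.9, 511 and 394 CPM in background. snoRNA:Psi28S-2626 had a log2 fold change of 0.72 in the tagged mean, snoRNA:Tudor-SN-a of -0.79 and snoRNA:Psi18S-1397 of -2.86. In the tagged mean 4 of 5 spliceosomal and related small nuclear RNAs and 1 of 12 mitochondrial transcripts (mt:tRNA:Tyr-GTA, -2.47) were lower, against 1.65% of all genes. Of the 5 small nuclear RNAs 1 was lower in wild type (median -0.26) and 4 in dnmnatOE (median -2.38), against 0.832% and 2.19%. The direct contrast of dnmnatOE over wild type called 4 of the 5 lower (1.37% of all genes). RNaseP:RNA, the RNA of ribonuclease P, had 49599, 51463 and 54721 CPM in wild type and 19675, 19149 and 21995 CPM in dnmnatOE, against 53891, 56265 and 60440 CPM in background. RNaseP:RNA was called lower in dnmnatOE and not in wild type.

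**Figure D5:**
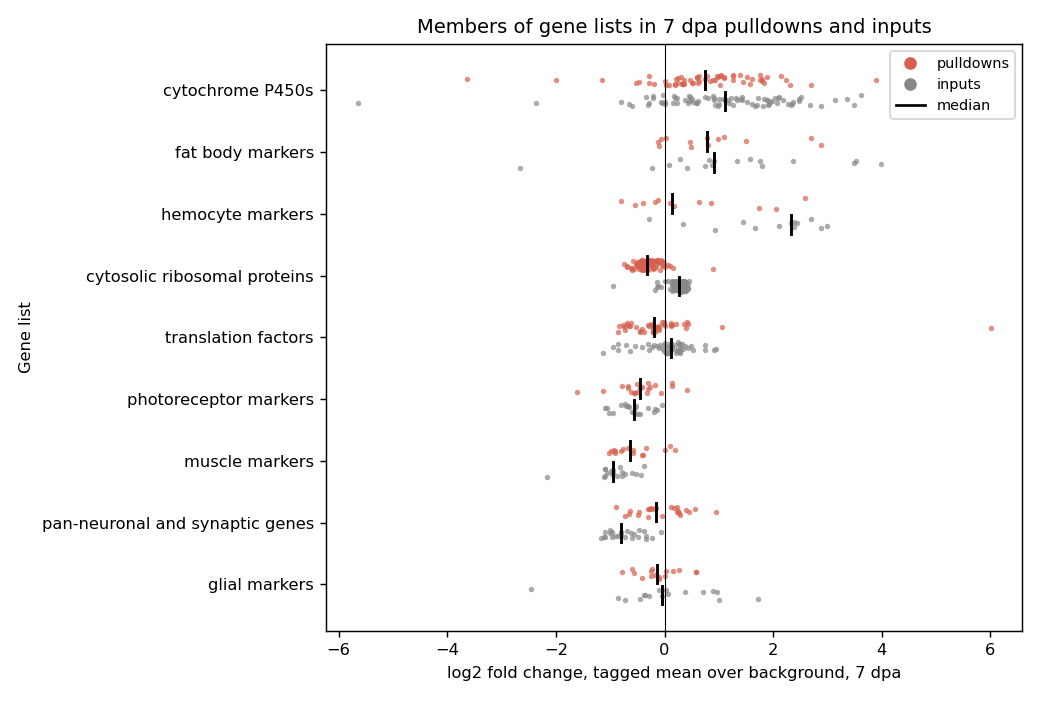
Log2 fold change of the tagged mean over background at 7 dpa (horizontal axis) of the genes of 9 lists (rows), in pulldowns (red points, upper in each row) and inputs (grey points, lower). Vertical black bars are medians over the tested genes of a list, at 0.75 for P450s and -0.63 for muscle in pulldowns.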

How the data were processed

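RNA of fly heads was measured in pulldowns (TRAP) and in inputs, the inputs being poly-A selected. The authors deposited whole-number counts per gene for each library, made with Trimmomatic, HISAT2, SAMtools and HTSeq on the dmel_r6.43 annotation. DESeq2 is also named in the submitters' processing notes, and versions, the strand setting and the counting mode are not given in the sources used here. The 5 summary rows of each file were removed, leaving 17611 genes.

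Counts were fitted with edgeR 4.0.16 (R 4.3.3; quasi-likelihood, robust, TMM scaling, low counts filtered by group) over the 18 pulldowns, the 18 inputs, or the 18 libraries of 7 dpa for the contrast of pulldown and input, with Benjamini-Hochberg adjustment over all genes tested. Thresholds were 0.05 for the adjusted p and 0.6 for the size of the log2 fold change, as stated in the methods of the study. Alternatives were RLE or library-size scaling, no filter, removal of non-coding classes, adjusted p alone, a replicate block, fewer libraries, DESeq2 1.42.0, limma 3.58.1 and leaving out each library. Named genes were the 12 shared transcripts per direction with the largest change and a mean count of at least 50, up to 3 called genes per list and direction, 5 per direction that differed between tagged genotypes, RpL10Ab, w, Nmnat and Orco. Other transcripts described are members of the shared set and were picked after their values were seen. The members and lists were chosen with earlier results of these data known. Pulldowns of 7 dpa held 708879 to 1463490 counts on genes, so genes of few counts are measured with large error. Intervals cover counting error only. Gene coordinates are from the Ensembl annotation of the Release 6 assembly.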

Additional observations from a re-analysis of the deposited data

Results flagged for a closer look

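The values here are differences between log2 fold changes, each past the adjusted p of its own edgeR contrast. The transcripts were chosen on the 7 dpa pulldowns that these contrasts use, and the contrast with uninjured heads was added after the data were seen. With 3 libraries per group no single library was tested as an outlier.

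The change over background differed between dnmnatOE and wild type, which share the background libraries. With scaling by library size alone, that contrast called 6 higher and 2 lower of the 73 higher transcripts, where TMM called 1 and 7, and 2 higher and 2 lower of the 30 lower transcripts, where TMM called 0 and 6. The difference, dnmnatOE minus wild type, was 1.14 for Lsp2. It was -1.62 for CG5162, -1.27 for phu, -1.0 for 7SLRNA:CR32864 and -0.71 for Cyp6g1 among the higher transcripts. Among the lower transcripts it was -1.29 for snRNA:U12, -0.95 for lncRNA:roX2, -0.84 for ninaE and -0.65 for up.

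The change over background also differed between 7 dpa and uninjured pulldowns. The difference, 7 dpa minus uninjured, was 6.35 for Amy-p, 3.14 for Nepl18, 2.91 for Sp7, 2.79 for Adgf-D, 2.64 for CG5162 and 2.05 for Lsp2. It was 1.76 for Est-6, 1.61 for Cyp9b2, 1.58 for Cyp6g1, 1.56 for Col4a1, 1.25 for phu and 0.88 for Yp2. For lower transcripts it was -2.01 for CG45076, -1.53 for lncRNA:roX2, -1.42 for Mdh2, -0.99 for CG9297 and -0.98 for LUBEL. For tou it was 0.96, so the deficit of tou was smaller at 7 dpa.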

How the results depend on the processing

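Scaling by library size alone gave 111 lower in wild type, 314 higher and 76 lower in dnmnatOE, 104 lower in uninjured pulldowns, 741 higher and 3690 lower in inputs, and 976 higher and 110 lower for pulldown minus input. It moved the median of all genes to -0.52 in inputs, -0.15 in wild type and 0.21 in dnmnatOE. It also turned the tally of which tagged genotype changed more, an alternative chosen after the data were seen, to 23 of 73 higher and 21 of 30 lower transcripts with the larger change in wild type, where TMM gave 54 and 8. For pulldown minus input, no filter gave 431 lower, removal of non-coding classes 461 lower, DESeq2 636 higher and 551 lower, and limma voom 134 higher and 66 lower. Adjusted p alone gave 51 shared lower, and 2423 higher and 1911 lower in inputs. A fit of only the 9 libraries gave 120 shared higher. DESeq2 on the same libraries gave 125 lower in wild type, 182 lower in the tagged mean and 173 higher in uninjured pulldowns. DESeq2 on all 36 libraries gave 742 higher and 591 lower in wild type, 741 and 703 in dnmnatOE, 699 and 733 in the tagged mean, 338 and 193 shared, 541 and 807 in uninjured pulldowns, and 1015 higher in inputs. The cause was not tested.

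With 1 library left out, counts ranged over 105 to 126 higher and 40 to 51 lower in wild type, 122 to 156 and 103 to 139 in dnmnatOE, 102 to 156 and 81 to 112 in the tagged mean, 51 to 66 and 19 to 30 shared, 82 to 128 and 121 to 205 in uninjured pulldowns, 1516 to 1601 and 823 to 1028 in inputs, and 223 to 437 and 174 to 475 for pulldown minus input. The lowest counts were 102 without background replicate 1 (tagged mean, higher), 105 without background replicate 3 (wild type, higher), 103 without dnmnatOE replicate 2 (dnmnatOE, lower), and 223 and 174 without background input 3 (pulldown minus input). That last contrast also gave 253, 241 and 240 higher without dnmnatOE inputs 1, 2 and 3, and 475 and 458 lower without wild type pulldowns 1 and 2. The w log2 fold change was 0.33 and ranged from -0.23 to 4.20 (without background replicate 2). It turned to -0.22 without background replicate 1, -0.23 without background replicate 3, -0.17 without wild type replicate 3 and -0.03 without dnmnatOE replicate 2.

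Same-numbered pulldowns of different genotypes after injury did not deviate together, with correlations of -0.0115 to 0.0156 over 9 pairs. The numbers therefore do not pair these pulldowns across genotypes. Whether an input and the pulldown of the same number deviate together was not tested. The main fit of pulldown minus input did not pair them. The replicate block gave 152 higher and 52 lower in wild type, 174 and 146 in dnmnatOE, 171 and 107 in the tagged mean, 71 and 27 shared, 109 and 153 in uninjured pulldowns, 1598 and 970 in inputs, and 304 and 241 for pulldown minus input. Of 68 named genes it ended the call of mt:tRNA:Tyr-GTA (adjusted p = 0.0603). Depth limits the calls of transcripts with few counts.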
